A study of Danio rerio with 6 samples.

Results

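The myeloid effector genes are a set of 10 genes known for their work in neutrophils and macrophages: lyz, mpx, lcp1, coro1a, mmp9, mmp13a, cxcr4b, ncf1, marco and irf8. They were found by gene symbol in the platform annotation of an Affymetrix zebrafish array. Of the 10 genes, 9 had at least 1 probe set, a group of short probes read as 1 value, and together they had 13 of the 15502 probe sets that are not array controls. No probe set carried the symbol irf8, a transcription factor gene that steers myeloid cells towards macrophages, so it was not analysed here. The samples were zebrafish embryos of the Tu strain at 24 hours after fertilization, and both groups had been in their treatment since 50% epiboly, a stage of gastrulation. One group of 3 arrays had received leflunomide at 6.5 uM, an antirheumatic drug that blocks pyrimidine synthesis, and the other group of 3 arrays had received DMSO alone. The labels name whole embryos as the tissue and total RNA as the molecule, and they say neither how many embryos went into an array nor whether a group mixed several clutches. The p-values therefore measure the spread between these arrays, which may be technical, and the number of arrays limits the precision.

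Myeloid cells arise early in the zebrafish embryo, from mesoderm at the front of the body, and spread over the yolk and through the tissues. Macrophages take up debris and microbes with scavenger receptors, and neutrophils carry granules filled with lysozyme and myeloperoxidase. Both move by remodelling actin and can cut the matrix around them with secreted metalloproteinases. Several of these genes are also used outside the myeloid lineage: cxcr4b, for one, guides the migrating lateral line primordium and germ cells and is active in the nervous system.

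All values below are on the log2 scale and centred, so that the median of each probe set over the 6 arrays is 0. A value compares arrays within a probe set and carries no absolute level. Only a coarse level could be recovered, as described with the processing, and probe sets with a median level of at least 4 on the log2 scale were tested. Of the 13 probe sets, 9 passed, standing for 7 genes, while ncf1, marco and 2 of the 4 mpx probe sets lay between 2 and 4, the low end of the scale. The test was limma's, with p-values adjusted over all 12394 tested probe sets, and a probe set was called at an adjusted p under 0.05. Among all tested probe sets 21.1% were called, 1240 of them higher after leflunomide and 1378, or 11.1% of those tested, lower. Among the 9 tested probe sets of the myeloid genes 2 were lower, for lyz and coro1a, 1 was higher, for mpx, and 6 were not called. In these 3 the groups did not overlap, as in 41.4% of all tested probe sets. On its DMSO arrays alone the mpx probe set called higher would have had a median level below the filter. The median difference of the 9 tested probe sets of the myeloid genes was -0.10, against 0.04 over all tested probe sets. With so few probe sets, and called probe sets that moved in opposite directions, these counts give no common direction for the set. Which transcript was measured by the 1 called higher is uncertain, as described below.

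The largest difference among the tested probe sets of the myeloid genes was in lyz, which encodes lysozyme C, an enzyme that breaks bacterial cell walls and is made by neutrophils and, in the young embryo, by some macrophages. Its values were 0.97, 1.67 and 1.11 on DMSO arrays 1 to 3 and -0.97, -1.15 and -1.42 on leflunomide arrays 1 to 3. Every leflunomide array lay well below every DMSO array, and the gap between the groups was several times the spread within them (SD 0.37 and 0.23, n = 3 each). lyz fell by 2.43 (SE 0.20, 5.38-fold, limma adjusted p = 0.000764). Against the DMSO mean the changes on the leflunomide arrays were -2.21, -2.40 and -2.67, so the gene was reduced by a like amount on each of them. On leflunomide array 3 the level could have been as low as 2.58, near the low end of the scale, and in that case the fall is understated. The median level of lyz was known only to lie from 4 to 8, so all 3 leflunomide arrays may have lain below 4. lyz would then have passed the level filter only through its DMSO arrays. The RNA came from whole embryos, so fewer cells of a type and less RNA per cell cannot be told apart for this or any other gene.

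**Figure D1:**
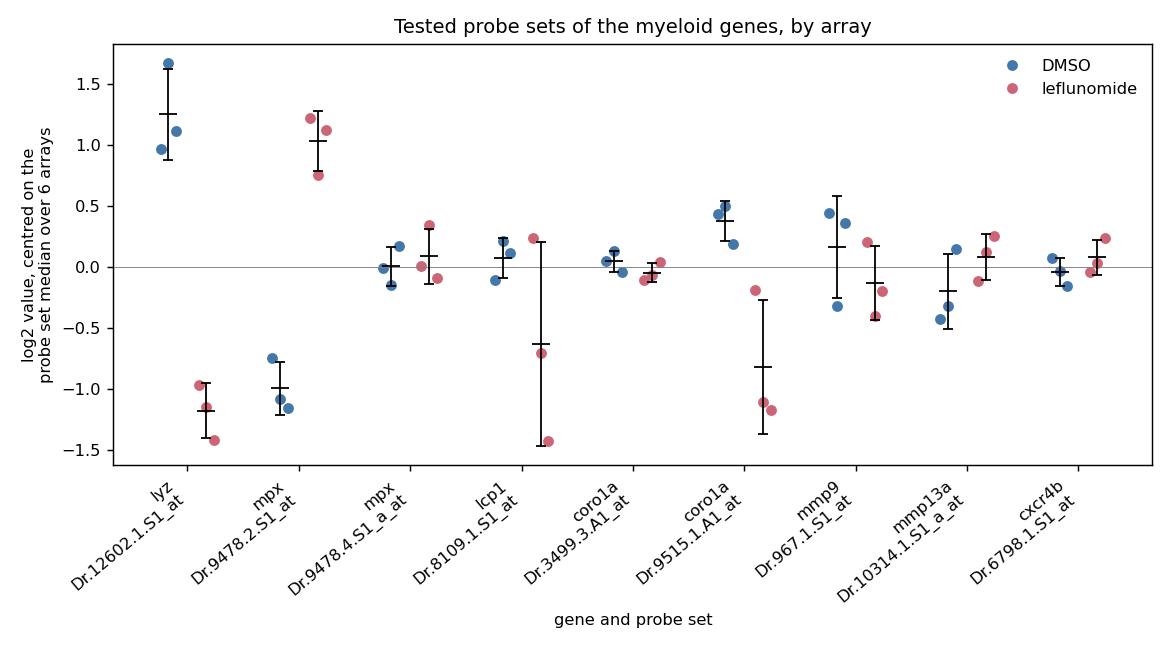
Centred log2 values (vertical axis) of the 9 tested probe sets of the myeloid genes (horizontal axis), with 1 point per array, DMSO in blue and leflunomide in red; black bars give the mean and SD of 3 arrays. lyz and the second coro1a probe set are lower on every leflunomide array, the first mpx probe set is higher on every one, and the groups overlap in the other 6.

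The second granule gene, mpx, encodes myeloperoxidase, which makes hypochlorous acid in neutrophils, and its 4 probe sets did not move together. Dr.9478.2.S1_at had values of -0.75, -1.08 and -1.16 in DMSO and 1.22, 0.75 and 1.12 after leflunomide. It was higher on every leflunomide array and rose by 2.03 (SE 0.17, 4.08-fold, limma adjusted p = 0.000665), a direction opposite to that of lyz. The other tested probe set, Dr.9478.4.S1_a_at, had -0.01, -0.15 and 0.17 in DMSO and 0.01, 0.34 and -0.09 after leflunomide. Its groups overlapped, with a difference of 0.08 (95% interval -0.26 to 0.42, limma adjusted p = 0.743). Dr.9478.4.S1_at, at the low end of the scale, differed by -0.01 (95% interval -0.27 to 0.24). Dr.9478.3.S1_a_at, at the same low level, had 0.30, 0.41 and 0.10 in DMSO and -0.17, -0.17 and -0.10 after leflunomide. All 3 of its leflunomide arrays were below the DMSO arrays, and in a fit without the level filter, which called 9.17% of probe sets lower, its difference of -0.41 passed (SE 0.11, limma adjusted p = 0.0383).

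The mpx probe set that rose shares the stem of its ID, Dr.9478, with Dr.9478.1.S1_at, which is annotated to cyp1a, a cytochrome P450 gene switched on through the aryl hydrocarbon receptor. cyp1a had -1.98, -1.81 and -1.90 in DMSO and 2.41, 1.88 and 1.81 after leflunomide, a rise of 3.93 (SE 0.17, limma adjusted p = 3.62e-05). Both probe sets were highest on leflunomide array 1, but leflunomide arrays 2 and 3 ranked oppositely in them. In DMSO cyp1a was lowest on array 1, where the mpx probe set was highest. These rankings rest on small differences, such as 1.88 and 1.81 for cyp1a, and their meaning was not tested. The other 3 mpx probe sets share the stem as well, with differences of -0.41 to 0.08. Of 987 ID stems that hold several named probe sets, 165, or 16.7%, hold probe sets of more than 1 gene. Which transcript Dr.9478.2.S1_at measured is uncertain, and whether cyp1a RNA contributed to its value was not tested. Its median level was below 5.08 and its level on DMSO array 2 below 4, so the rise began near the low end of the scale. DMSO array 3 was lower still, at -1.16 against -1.08. Dr.9478.2.S1_at thus passed the level filter only through its higher leflunomide arrays.

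The difference between Dr.9478.2.S1_at and Dr.9478.4.S1_a_at was itself compared between the groups. It was -0.74, -0.94 and -1.34 in DMSO and 1.21, 0.41 and 1.21 after leflunomide, without overlap. A two-sided exact permutation test gave p = 0.1, the smallest that 3 arrays against 3 allow (p = 0.175 adjusted over the 7 pairs of probe sets compared within mpx and coro1a). Leaving out all probe sets whose stem is shared with another gene was an alternative chosen after seeing the data. It removed Dr.9478.2.S1_at, the one called higher, and also Dr.9478.4.S1_a_at and Dr.3499.3.A1_at, which were not called. Of the 6 tested probe sets of the myeloid genes left, 2 were lower and 0 higher in limma at an adjusted p under 0.05. At an unadjusted p under 0.05 the count higher was also 0. These counts follow from which probe sets were removed and are no separate test.

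**Figure D2:**
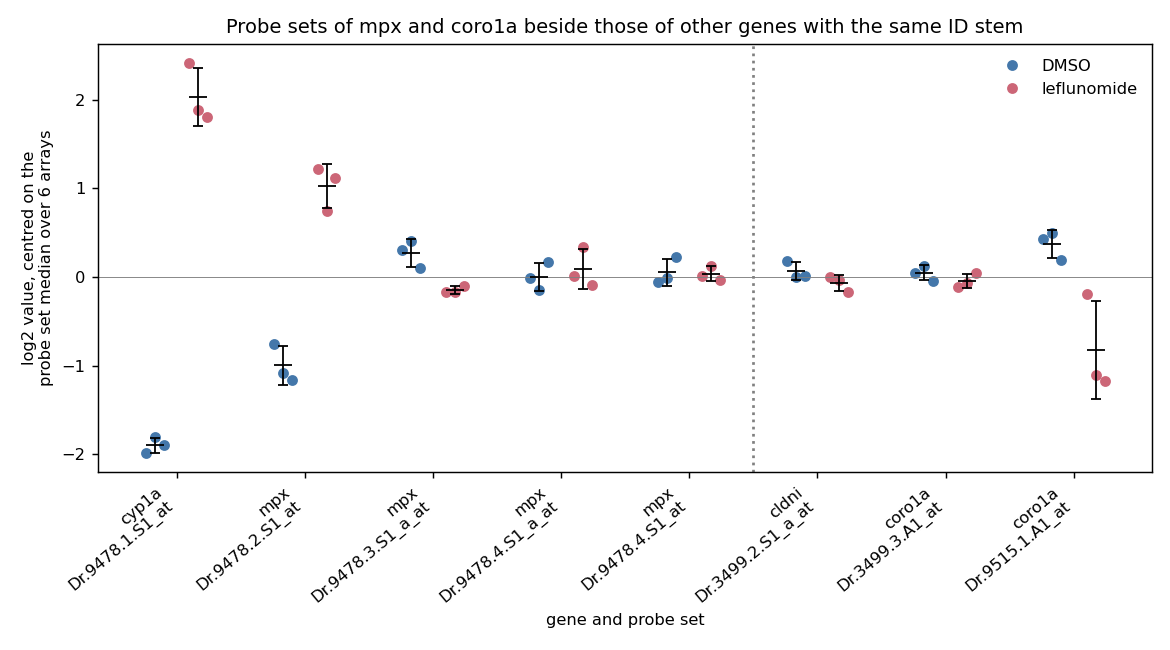
Centred log2 values (vertical axis) by array for the mpx probe sets beside cyp1a, left of the dotted line, and for the coro1a probe sets beside cldni, right of it (probe sets on the horizontal axis); DMSO is blue, leflunomide red, and bars give the mean and SD of 3 arrays. Of the 4 mpx probe sets Dr.9478.2.S1_at alone is called higher, by 2.03, beside a rise of 3.93 for cyp1a, and of the 2 coro1a probe sets Dr.9515.1.A1_at alone is called lower.

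A pair of actin genes mark leukocytes in general. coro1a encodes coronin 1A, which binds actin filaments in moving and engulfing leukocytes, and it had 2 tested probe sets. Dr.9515.1.A1_at had 0.43, 0.50 and 0.19 in DMSO and -0.19, -1.11 and -1.17 after leflunomide. All leflunomide arrays were lower, array 1 by the least, and the probe set fell by 1.2 (SE 0.26, 2.30-fold, limma adjusted p = 0.0172). The call was lost without any 1 DMSO array or without leflunomide array 2 (limma adjusted p = 0.0534 to 0.0638), with differences of -1.29 to -1.06, and it was kept without leflunomide array 1 or 3. Dr.3499.3.A1_at had 0.05, 0.13 and -0.04 in DMSO and -0.11, -0.07 and 0.04 after leflunomide. Here the groups overlapped, and the difference was -0.10 (95% interval -0.33 to 0.14, limma adjusted p = 0.549).

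The coro1a probe set that was not called shares the stem Dr.3499 with a probe set of cldni, a claudin gene of tight junctions, whose difference was -0.14 (SE 0.10, limma adjusted p = 0.407). Whether it measured coro1a was not tested. Dr.3499.3.A1_at minus Dr.9515.1.A1_at was -0.38, -0.37 and -0.23 in DMSO and 0.08, 1.04 and 1.21 after leflunomide. These ranges did not overlap, with the smallest two-sided exact permutation p that the design allows (p = 0.1, and 0.175 adjusted over the 7 pairs).

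lcp1 encodes L-plastin, which bundles actin filaments in all leukocytes. Its values were -0.11, 0.21 and 0.11 in DMSO and 0.24, -0.71 and -1.43 after leflunomide. Leflunomide array 1 was the highest of all 6 arrays, whereas arrays 2 and 3 were the lowest, so the groups overlapped and the leflunomide SD of 0.84 exceeded the DMSO SD of 0.17. The difference of -0.71 was not called (SE 0.37, 95% interval -1.57 to 0.15, limma adjusted p = 0.216). It was called without leflunomide array 1, at -1.14 (limma adjusted p = 0.0131), and was -0.31 without leflunomide array 3 (limma adjusted p = 0.467). The call of lcp1 thus turned on leflunomide array 1, and its size on arrays 1 and 3.

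lyz, the falling coro1a probe set and lcp1 had their least change on leflunomide array 1 and their greatest on array 3. Array 1 also changed least over the whole table, with a median absolute change of 0.55 among all called probe sets, against 0.76 and 0.72 on arrays 2 and 3. On array 3 the 4 poly-A control transcripts added to the RNA had 3' minus 5' differences of 0.44 to 1.75, against -0.58 to 0.22 on the other 5 arrays. A fit with array weights gave leflunomide array 3 the lowest weight, 0.483, against 0.851 to 1.91 on the other arrays. In that fit lcp1 differed by -0.55 (limma adjusted p = 0.234) and Dr.9515.1.A1_at by -1.18 (limma adjusted p = 0.0108). Beyond this fit and leaving out each array, the part of these array differences in the spread of lcp1 and coro1a was not tested.

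**Figure D3:**
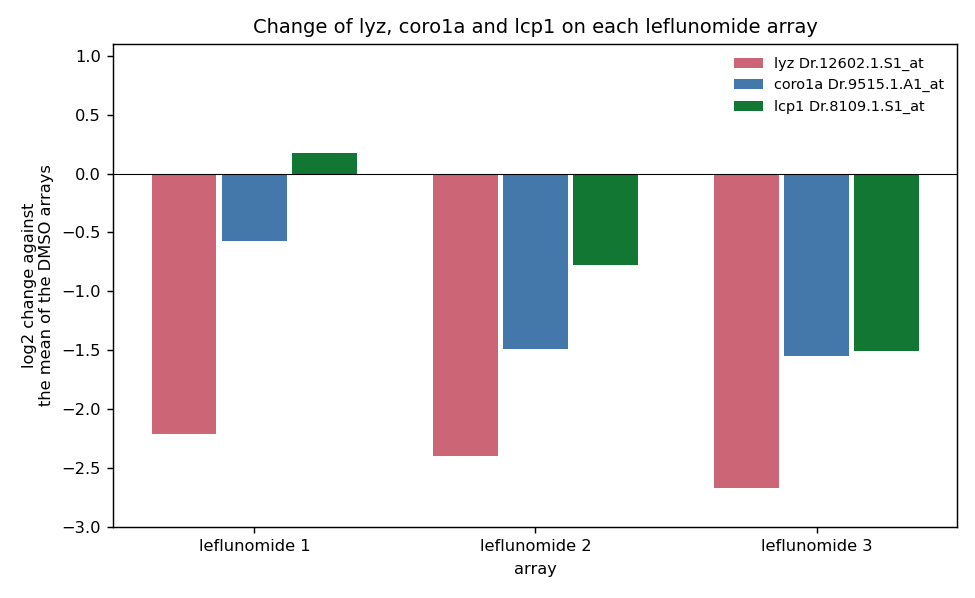
Log2 change against the mean of the DMSO arrays (vertical axis) on each leflunomide array (horizontal axis) for lyz, coro1a (Dr.9515.1.A1_at) and lcp1. lyz changes by -2.21 to -2.67, coro1a by -0.57 to -1.55 and lcp1 by 0.17 to -1.51, each least on array 1.

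The matrix metalloproteinases of the set were not called. mmp9 encodes gelatinase B, which cuts denatured collagen, and had 0.44, -0.32 and 0.36 in DMSO and 0.20, -0.40 and -0.20 after leflunomide. DMSO array 2 lay among the leflunomide arrays, and the difference was -0.29 (95% interval -0.84 to 0.25, limma adjusted p = 0.423). mmp13a encodes a collagenase and was the one member with a median level of at least 8. Its values were -0.43, -0.32 and 0.15 in DMSO and -0.12, 0.12 and 0.25 after leflunomide, which overlap, with a difference of 0.28 (95% interval -0.12 to 0.69, limma adjusted p = 0.293). These intervals still allow changes of up to -0.84 for mmp9 and 0.69 for mmp13a.

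Of the receptors, cxcr4b, which binds the chemokine Cxcl12, had 0.07, -0.03 and -0.16 in DMSO and -0.04, 0.03 and 0.24 after leflunomide. The groups overlapped and the difference was 0.12 (95% interval -0.16 to 0.39, limma adjusted p = 0.542). marco encodes a scavenger receptor of macrophages and lay at the low end of the scale. Its values, -0.11, -0.02 and 0.02 in DMSO and 0.10, -0.08 and 0.03 after leflunomide, overlapped, and without the filter its difference was 0.05 (95% interval -0.17 to 0.28). ncf1, an organising subunit of the NADPH oxidase that produces superoxide in phagocytes, lay equally low. It had 0.02, -0.09 and -0.02 in DMSO and 0.09, -0.62 and 0.02 after leflunomide, so array 2 alone was low. The ncf1 difference was -0.14 (95% interval -0.57 to 0.29). At these levels a change of marco or ncf1 may not have been measurable.

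**Figure D4:**
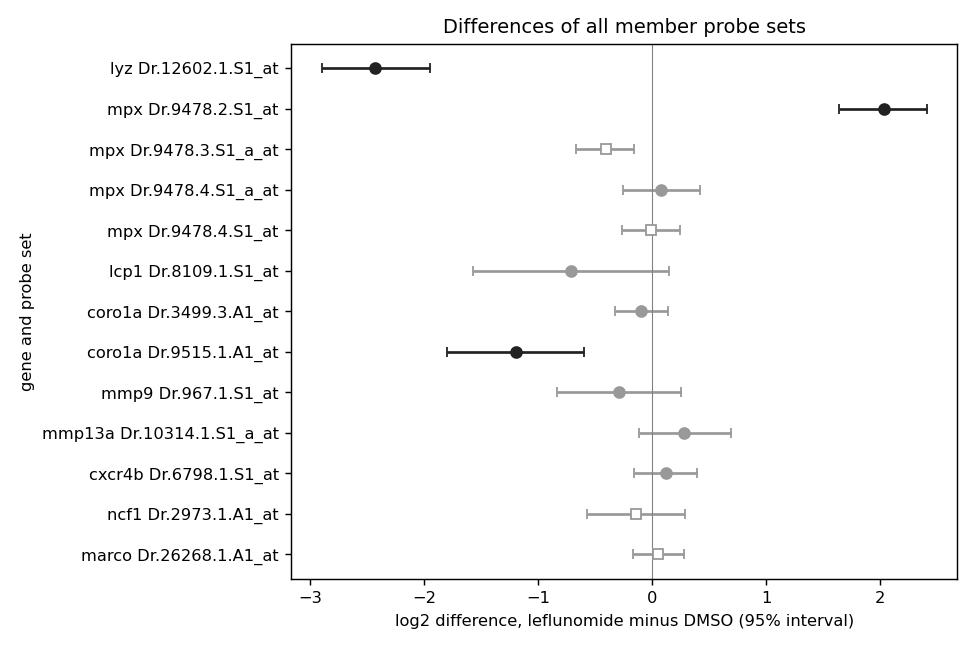
Log2 difference, leflunomide minus DMSO, with its 95% interval from limma (horizontal axis) for all 13 probe sets of the 9 measured genes (vertical axis). Black circles are called, grey circles tested but not called, and open squares below the level filter, with intervals from the fit without it; intervals are not adjusted for multiple tests. lyz lies furthest below 0, at -2.43, and 1 of the 4 mpx probe sets furthest above, at 2.03.

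The lists of the same systems were counted with 1 probe set a gene, of which 22.1% were called over 7717 genes, 10.7% higher and 11.4% lower. The list counts rest on that probe set, which for mpx is the one that rose and for coro1a the one that was not called. Several lists hold myeloid genes already described, which are counted here a second time, so the counts without them are given too. Among 5 tested genes of the pan-leukocyte list 2 fell, capgb and arpc1b. The 3 genes besides coro1a and lcp1 had a median of -0.82, the value of capgb, against 0.04 over all tested probe sets. Whether these falls came from leukocytes was not tested. capgb, an actin-capping protein gene, had 0.20, 0.90 and 0.27 in DMSO and -0.48, -0.20 and -0.39 after leflunomide, and it fell by 0.82 (SE 0.19, limma adjusted p = 0.0242). arpc1b, a subunit of the Arp2/3 complex that nucleates actin branches, fell by 0.84 (SE 0.23, limma adjusted p = 0.0406), with its leflunomide values spread from -0.13 to -1.13. The capgb call was lost without 3 of the 6 arrays in turn and that of arpc1b without 5. laptm5, a lysosomal protein gene of blood cells, had a difference of -0.32 (limma adjusted p = 0.22). Below the filter lay ptprc, the leukocyte marker CD45, with -0.34, wasb with -0.18 and lcp2a with -0.01. The groups overlapped in wasb and lcp2a. In ptprc all leflunomide arrays were below the DMSO arrays, but without the filter it was not called (limma adjusted p = 0.0886).

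Actin regulators included further genes that fell and others that did not. In the coronin family 2 of 4 tested genes fell (2 of 3 without coro1a), coro1b by 0.75 (SE 0.18, limma adjusted p = 0.0242) and coro1ca by 0.34 (limma adjusted p = 0.0469), the latter with -0.07 at its other probe set. The coro1b call was lost without 3 of the 6 arrays in turn and that of coro1ca without any 1 array and with the replicate number as a block (limma adjusted p = 0.0658). As the mean over its probe sets coro1ca had -0.21 (limma adjusted p = 0.448). Among 3 tested plastins and other actin bundlers, 1 of them lcp1, fscn1a, a fascin gene, fell by 0.48 (SE 0.11, limma adjusted p = 0.0205), a call lost without 2 of the 6 arrays in turn. Its other probe sets had differences of -0.63 (limma adjusted p = 0.1) and -0.18 (limma adjusted p = 0.231) and were not called. The remaining tested genes of these lists, coro6 and actn1, had differences of -0.14 and 0.03 and were not called. pls1, a plastin gene like lcp1, lay below the filter with 0.32. All its leflunomide arrays were above the DMSO arrays, but without the filter it was not called (limma adjusted p = 0.0587). vil1, also below the filter, had 0.03 and overlapping groups. Both families have members used widely outside leukocytes.

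In the neutrophil list of 6 tested genes the calls were those of lyz and mpx. The list also holds mmp9 and mmp13a, and of its 2 other tested genes 0 were called in limma (also 0 at an unadjusted p under 0.05). These were pgd and cebp1, with differences of -0.08 and 0.31. srgn, the granule proteoglycan gene serglycin, lay below the filter and had 0.27, 0.92 and 0.22 in DMSO and -0.22, -0.44 and -0.62 after leflunomide, all lower than in DMSO. Without the filter its difference of -0.89 passed (SE 0.20, limma adjusted p = 0.0239). timp2b, of the same list and also below the filter, differed by 0.12, and its groups overlapped. In the macrophage list 1 of 6 rose, the cathepsin S gene ctss2.1, by 0.45 (SE 0.10, limma adjusted p = 0.0198), and 0 fell in limma (also 0 at an unadjusted p under 0.05); its median was 0.22. The ctss2.1 call was lost without 3 of the 6 arrays in turn. csf1ra, the receptor gene for the macrophage growth factor Csf1, lay below the filter with 0.11, as did marco of the same list. c1qc, a complement gene of macrophages, differed by -0.06 (limma adjusted p = 0.736). The other tested genes, apoeb, slc7a7, cd63 and ptpn6, had 0.29, 0.20, 0.24 and -0.28 and were not called. Which cells gave the RNA of the tested genes was not tested, so the count is no measure of macrophages.

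The partners of the members differed among themselves. In the NADPH oxidase list 1 of 2 tested genes rose: cyba, the membrane subunit, by 0.33 (SE 0.10, limma adjusted p = 0.049), a call lost without any 1 array, with either scaling between arrays, with array weights and with the replicate number as a block. Its other probe set had a difference of 0.32 (limma adjusted p = 0.0712). ncf4, a cytosolic subunit, lay below the filter with 0.20. In the Cxcl12 list 1 rose and 1 fell of 5 tested genes, or of 4 without cxcr4b. cxcl12a, the ligand gene, had -0.48, -0.47 and -0.44 in DMSO and 0.49, 0.57 and 0.44 after leflunomide, a rise of 0.97 (SE 0.09, limma adjusted p = 0.00117). Its second probe set had a difference of -0.08 (limma adjusted p = 0.722), so the rise was seen at 1 of 2 probe sets. cxcr4a, the paralog of cxcr4b, fell by 0.56 (SE 0.12, limma adjusted p = 0.0173), a call lost without 3 of the 6 arrays in turn. cxcl12b and the scavenging receptor gene ackr3b had differences of 0.23 and -0.13 and were not called.

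Of 6 tested metalloproteinases, mmp9 and mmp13a among them, 0 were called in limma on the probe set that stood for the gene, and 2 (mmp2 and mmp14a) had an unadjusted p under 0.05. mmp2, gelatinase A, had differences of 0.56 (limma adjusted p = 0.0848) and 0.50 (limma adjusted p = 0.0337) at its probe sets. mmp14a, a membrane-bound protease gene, had 0.46 (limma adjusted p = 0.0569) and, at its other tested probe set, 0.32 (limma adjusted p = 0.168). timp2a, an inhibitor of these enzymes, had 0.69, 0.42 and 0.26 in DMSO and -0.26, -0.88 and -0.64 after leflunomide. It fell by 1.05 (SE 0.18, 2.07-fold, limma adjusted p = 0.00834) and was called in all 6 fits that left out 1 array. It was the 1 tested gene of the inhibitor list. Its paralog timp2b, below the filter, differed by 0.12 with overlapping groups.

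Among 16 tested transcription factor genes of myeloid cells and early blood 1 rose and 3 fell, with a median of -0.05. spi1b, the Pu.1 factor that directs myeloid fate, differed by 0.12 at its tested probe set (95% interval -0.13 to 0.38, limma adjusted p = 0.483). cebpa and cebpb, factors of granulocyte and macrophage genes, had differences of 0.31 (limma adjusted p = 0.132) and 0.43 (limma adjusted p = 0.051). Those that fell were gata1a, the erythroid factor, by 1.19 (limma adjusted p = 0.00384), fli1 by 1.19 with -0.17 at its other probe set, and the lymphoid factor ikzf1 by 0.44. gata2a, a factor of blood progenitors, endothelium and neurons, rose by 0.68 (limma adjusted p = 0.0185). With 1 array left out in turn gata1a was called in all 6 fits, whereas the calls of gata2a and ikzf1 were each lost in 4 and that of fli1 in 3. The fli1 difference was -0.76 without leflunomide array 2. Interferon regulatory factors and scavenger receptors each had 0 called of 4 tested in limma, and 0 at an unadjusted p under 0.05. In the inflammatory list ptgs2a, a prostaglandin synthesis gene, fell by 0.52 (limma adjusted p = 0.0343), the one call among 7 tested genes, lost without 5 of the 6 arrays in turn. The list of lysozymes and heme peroxidases had no call beyond lyz and mpx among 4 tested. The 2 others were prdx1, a peroxiredoxin gene and not a heme peroxidase, with 0.11, and cat, the catalase gene, with 0.15. No other lysozyme gene was tested.

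Markers of other cells moved in the same comparison, and their part in the values above was not tested. All 11 tested erythroid markers fell, with list medians of 0.89 to 1.11 on the DMSO arrays and -1.52 to -0.72 on the leflunomide arrays. All 12 tested skeletal muscle markers fell, with medians of 1.54 to 1.89 and -2.57 to -1.54. Of 7 endothelial markers 4 fell (medians 0.15 to 0.21 and -0.93 to -0.15), and of 8 early neuron markers 6 fell (0.30 to 0.37 and -0.88 to -0.27). Of 9 lateral line markers, a tissue that also expresses cxcr4b, 4 fell (0.09 to 0.23 and -0.33 to -0.04), namely eya1, prox1a, atoh1a and six2a. Not called were cldnb with 0.09, lef1 with 0.42, etv4 with 0.30, tnfrsf19 with -0.04 and fgf10a with -0.30. Whether these changes came from the lateral line was not tested. Of 12 epidermis markers 1 rose (-0.07 to -0.04 and 0.06 to 0.16). Of 4 tested genes in the mast cell and lymphocyte list 2 fell, ikzf1, already counted among the transcription factors, and tox. With 1 array left out in turn these calls were lost in 4 and 5 of 6 fits. cpa5, a mast cell gene, lay below the filter with -0.13, so no mast cell gene of the list was tested. The other tested tox probe set had 0.06 (limma adjusted p = 0.714), and the tox call was also lost with the replicate number as a block (limma adjusted p = 0.0585). The recombinase genes rag1 and rag2 had differences of 0.05 and -0.04.

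The genes with values nearest to those of lyz over the 6 arrays, by root mean square distance, were pvalb3 (0.21), uck2b (0.27), sox11b (0.27), usp13 (0.29) and csf1b (0.29). They are a parvalbumin gene, a uridine-cytidine kinase gene, a neural transcription factor gene, a ubiquitin protease gene and the gene of a Csf1 receptor ligand. Their differences between the groups were -2.66 to -2.24, beside -2.43 for lyz. This likeness follows from choosing them by distance to the lyz values and is no separate result.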

How the data were processed

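Total RNA of 6 embryo samples was read on 6 Affymetrix arrays, and the titles gave each sample its group and number. The deposited values are log2 values made by the authors with GCRMA, per the submitters' processing notes, with no version stated there. GCRMA corrects background by probe sequence, applies quantile normalization and summarises probes, so absolute levels are compressed at the low end. The median of each probe set over the arrays is 0 within 5e-07, a centring that no source used here describes, and the log base was taken as 2. The step of single-precision numbers placed the median level of 3108 probe sets at 2 to 4, of 8652 at 4 to 8 and of 3742 at 8 to 16 (values under 0.001 in size were not read; a few probe sets near 4 may be misplaced). This stood in for a filter on low values, and 115 control probe sets were left out.

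Gene symbols came from the platform annotation, with 1 gene for 10795 probe sets, several for 135 and none for 4572. Of the gene identifiers 10718 matched RefSeq genes of GRCz12tu, which updated 1 symbol. A probe set may also bind close paralogs. Differences are leflunomide minus DMSO, from limma 3.58.1 under R 4.3.3 with lmFit and eBayes (two-sided, Benjamini-Hochberg over tested probe sets, threshold 0.05). The procedure was tested on simulated data. The 21 lists take 1 probe set a gene: that of the highest level, ties going to the more specific suffix and then to the ID. No set test was run. The members and lists were chosen with earlier results of these data known. Named genes were all members, up to 5 called genes a list, the direct paralogs and partners of members, and the 5 genes nearest to lyz. Added after their values were seen were srgn, pgd, cebp1, timp2b, ptprc, laptm5, wasb, lcp2a, csf1ra, c1qc, rag1, rag2 and irg1l. The same holds for prdx1, cat, apoeb, slc7a7, cd63, ptpn6, cpa5, cldnb, lef1, etv4, tnfrsf19 and fgf10a. It also holds for pls1, actn1 and vil1. In each pair of arrays at most 2 probe sets had an identical value. Alternatives covered the filter, the scaling, the variance model, array weights, a block for the replicate number, each array left out, the threshold, gene means and, added after seeing the data, shared ID stems.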

Additional observations from a re-analysis of the deposited data

How the results depend on the processing

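The lower lyz and the higher mpx probe set kept direction and call under all alternatives run on them, with lyz at -2.57 to -2.22 and mpx at 1.05 to 2.17, its low being the mean over both tested mpx probe sets. For coro1a that mean was -0.65 (limma adjusted p = 0.015). A level of at least 8 removed both lyz and Dr.9478.2.S1_at, and leaving out shared stems removed Dr.9478.2.S1_at. Those settings therefore could not test these calls. The 3 calls among the members became 2 to 4 when 1 array was left out and 0 of 1 at a level of at least 8. Over all 12394 tested probe sets the 2618 calls became 1270 of 3742 at a level of at least 8, a larger share. At an adjusted p under 0.01 they became 882, and when 1 array was left out 1162 to 2836. Without DMSO arrays 1, 2 and 3 they were 1316, 1257 and 1162, and without leflunomide array 2 they were 1484. Calls among the list genes, 55 of 127, became 25 of 47 at a level of at least 8, also a larger share. They became 34 of 127 at an adjusted p under 0.01. With 1 array left out they became 36 to 57, the lowest without DMSO array 3. The difference of Dr.9478.4.S1_a_at, not called, changed sign to -0.04 without leflunomide array 2 (-0.04 to 0.17 over the arrays left out); the cause was not tested. With the replicate number as a block 2549 probe sets were called, 3 of them members, and 55 list genes. Deviations of equal replicate numbers from their group means correlated with r = 0.33, 0.19 and 0.07 for numbers 1 to 3, each the best match of that array; this is a hint from the data, and the numbers were not taken as pairs. Signal near the low end limits marco, ncf1 and 2 mpx probe sets, and on the DMSO arrays also Dr.9478.2.S1_at. It may also limit lyz on the leflunomide arrays.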

Other observations

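irg1l, an enzyme gene of macrophages that makes the metabolite itaconate, lay at the low end of the scale and was named after its values were seen. It had 0.54, -0.04 and 0.04 in DMSO and 2.00, -0.12 and -0.20 after leflunomide, so leflunomide array 1 stood apart from the other 5 arrays. The difference between the groups was 0.38 (95% interval -0.90 to 1.66) in the fit without the level filter.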
